A study of Canis lupus familiaris with 8 samples.

Results

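Differences between JuB2 cells labelled as carrying a short hairpin RNA (shRNA) against KDM2B and JuB2 cells carrying a scramble hairpin are described across all genes with a measurable level. JuB2 was established from canine hemangiosarcoma, a malignant tumour whose cells share features with the lining of blood vessels. The comparison holds 6 of the 8 RNA sequencing libraries of the series, 3 labelled KDM2B shRNA and 3 labelled scramble shRNA, and the other 2 are untreated JuB2 cells and normal canine endothelial cells. The titles give 1 hairpin name on each side, shA and scr1, so a second hairpin against KDM2B was not analysed here. Nothing in the labels says that the 3 libraries of a group came from separate cultures, so each p-value measures the spread between these libraries, which may be technical. Values are TPM (a gene's transcripts scaled to a common total), a share of all transcripts in a library, computed by the authors. Genes were kept when they reached 1 TPM in at least 3 of the 6 libraries, which left 11485 of the 30424 genes listed. The tested genes include 10016 with a symbol of their own, and 1322 had no symbol. Depth is unknown, because TPM keeps none, and a value listed at 0 can be a failed estimate.

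KDM2B is a chromatin protein that binds unmethylated CpG-rich DNA through a zinc finger domain. It removes methyl groups from histones and brings a variant Polycomb repressive complex, which adds ubiquitin to a histone, to the promoters it binds. The question of the series is whether KDM2B matters to the survival of hemangiosarcoma cells and to how they handle DNA damage. An shRNA is processed to a short RNA that guides cleavage or silencing of the matching transcript. Roles of genes given below are those of the human or mouse genes of the same name.

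KDM2B (ENSCAFG00000008259) stood at 20.9, 19.7 and 18.2 TPM in libraries labelled KDM2B shRNA, against 14.01, 15.01 and 12.9 TPM in scramble. Each library labelled KDM2B shRNA was above each scramble library, which is the reverse of what the label says. The difference was 0.46 ± 0.11 (SE) on the log2(TPM + 1) scale, with a limma adjusted p of 0.0101, and 0.31 with trimmed-mean scaling (limma adjusted p = 0.0417). Every direction below therefore sets the libraries labelled KDM2B shRNA against scramble, and none describes a measured loss of KDM2B transcript. RNF34, a ubiquitin ligase gene, follows KDM2B in the RefSeq gene order of the assembly UU_Cfam_GSD_1.0, where the annotated spans of the 2 genes overlap. It stood at 111, 93.2 and 60.3 TPM in libraries labelled KDM2B shRNA, against 21.0, 12.1 and 21.2 TPM in scramble, with 22.6 TPM in the untreated library. The groups did not overlap, and the difference was 2.22 ± 0.27 (limma adjusted p = 0.000478). Whether strand was used in the counting is not given in the sources used here, so reads of KDM2B and RNF34 may not be told apart and both values are uncertain. Of the other genes around them, TMEM120B rose by 1.32 ± 0.17, the small GTPase gene RHOF by 1.08 ± 0.10, the calcium channel gene ORAI1 by 0.91 ± 0.23 and the methyltransferase gene SETD1B by 0.64 ± 0.16. ANAPC5, a subunit of the anaphase-promoting complex, fell by 1.20 ± 0.14, and P2RX4, an ATP-gated channel, fell by 0.69 ± 0.14. CAMKK2, a kinase between these 2, differed by 0.23 ± 0.17 and did not pass (limma adjusted p = 0.287).

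Libraries of a group resembled each other more than those of the other group. Pearson's r of log2(TPM + 1) across genes was 0.975 to 0.977 within the libraries labelled KDM2B shRNA, 0.977 to 0.978 within scramble and 0.934 to 0.937 between the groups. Several defining endothelial genes were near 0. Of 12 endothelial markers with a row, 8 stayed below 1 TPM in all 6 libraries, among them PECAM1, CDH5 and VWF, while KDR, FLT1 and EGFL7 were measurable. The library of normal endothelial cells likewise listed PECAM1, VWF and TIE1 at 0, and CDH5 at 0.64 TPM. Other endothelial markers were measurable there, with ERG at 21.9 TPM, FLT1 at 13.2, EMCN at 3.11 and TEK at 2.38. In that library fibroblast markers summed to 21511 TPM and smooth muscle markers to 12768 TPM, against 45.1 TPM for endothelial markers. Its summed markers thus go against its name, though not every endothelial marker does, and it is not used here as an endothelial reference. ERG was listed at 9.22, 7.42 and 0 TPM in libraries labelled KDM2B shRNA and at 0 in each scramble library. Endothelial markers summed to between 34.5 and 45.2 TPM in libraries labelled KDM2B shRNA and to between 22.4 and 26.8 TPM in scramble, ERG included. KDR and EGFL7 rose by 0.75 ± 0.18 and 0.86 ± 0.17 (limma adjusted p = 0.00994 and 0.00459). Both also passed with trimmed-mean scaling (limma adjusted p = 0.0222 and 0.0106). FLT1 did not pass (-0.09 ± 0.12, limma adjusted p = 0.585). Smooth muscle markers summed to between 112 and 141 TPM in libraries labelled KDM2B shRNA, against between 359 and 403 TPM in scramble, where most of it was TAGLN. The untreated library, at 123 TPM, lay within the range of the libraries labelled KDM2B shRNA. TAGLN and ACTA2 fell, whereas CNN1 and MYH11 differed by -0.04 ± 0.08 and 0.12 ± 0.14 and did not pass (limma adjusted p = 0.686 and 0.523). Fibroblast markers summed to between 763 and 837 TPM in libraries labelled KDM2B shRNA, against between 1360 and 1385 TPM in scramble, mostly collagens. COL1A1, COL1A2, PDGFRA and THY1 fell, by 1.02 ± 0.06, 1.55 ± 0.05, 0.67 ± 0.11 and 0.81 ± 0.11. COL3A1 instead rose by 0.14 ± 0.05 (limma adjusted p = 0.0439), but not with trimmed-mean scaling (-0.02, limma adjusted p = 0.708). LUM did not pass (0.38 ± 0.24, limma adjusted p = 0.221). Neural markers summed to between 28.3 and 38.4 TPM in libraries labelled KDM2B shRNA, against between 66.3 and 77.0 TPM in scramble, nearly all of it MAP2, and 3 of the 7 with a row were at 0 in all 6 libraries. Epithelial markers summed to between 25.7 and 31.5 TPM in libraries labelled KDM2B shRNA, against between 56.7 and 66.8 TPM in scramble, mostly ESRP1. Of 7 blood cell markers with a row, 6 were below 1 TPM in all 6 libraries, and the exception is the row listed as CD79A, at 1806, 1971 and 2037 TPM in libraries labelled KDM2B shRNA, against 1617, 1816 and 1729.7 TPM in scramble. It held 3056 TPM in the normal endothelial cells, and whether this row measures CD79A was not checked. Fewer cells of a type and less RNA per cell cannot be told apart in such libraries, and the part of these markers in the results below was not tested.

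Of the 11485 genes, 5850 (50.9%) passed the threshold (limma adjusted p under 0.05). Relative to scramble 3823 genes were higher (33.3%) and 2027 lower (17.6%). The median of all differences was 0.16 on the log2 scale, and trimmed-mean scaling, which lowers that median by 0.15, gave 2728 higher (23.8%) and 2826 lower (24.6%). Calls in the same direction with trimmed-mean scaling, with quantile normalization and without the mitochondrially encoded genes numbered 2603 higher and 2011 lower. Nearly all fallen genes were thus called under every scaling, and a smaller share of the risen ones. Each of these alternatives lowers the median difference, to 0.01, 0.02 and 0.06 in that order, which enlarges falls and shrinks rises. The unequal shares follow from that shift and do not show that falls are the sounder calls. Without regard to the test, 6805 genes had no overlap between the groups (59.3%), of which 4400 (38.3%) were higher and 2405 (20.9%) lower.

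Most changes were small. The median size among called genes was 0.65 on the log2 scale. A difference of at least 1 was reached by 772 higher and 401 lower genes, one of at least 2 by 63 and 27, and one of at least 3 by 20 and 4. The share of genes called grew with level, at 27.7% under a mean of 5 TPM and 66.9% at 100 TPM or more. Among the called genes the share that rose was highest at low levels. Under 5 TPM 76.4% of the called genes were higher in the libraries labelled KDM2B shRNA (67.5% with trimmed-mean scaling), and in each band above that 62.0% to 66.9% were (44.8% to 51.2% with trimmed-mean scaling). More genes were also listed above 0 in these libraries, 13420 ± 32.5, against 12719 ± 47.6 in scramble (SD, n = 3 each). In all 3 libraries labelled KDM2B shRNA and in no scramble library 151 tested genes reached 1 TPM, and for 27 the reverse held. Each of these genes passed the filter of 1 TPM in at least 3 libraries only through the group where it was high. Their lack of overlap was thus set by their selection and is no test. Such counts at low levels can depend on depth, which is unknown here, and whether it differed between the groups was not tested.

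**Figure D1:**
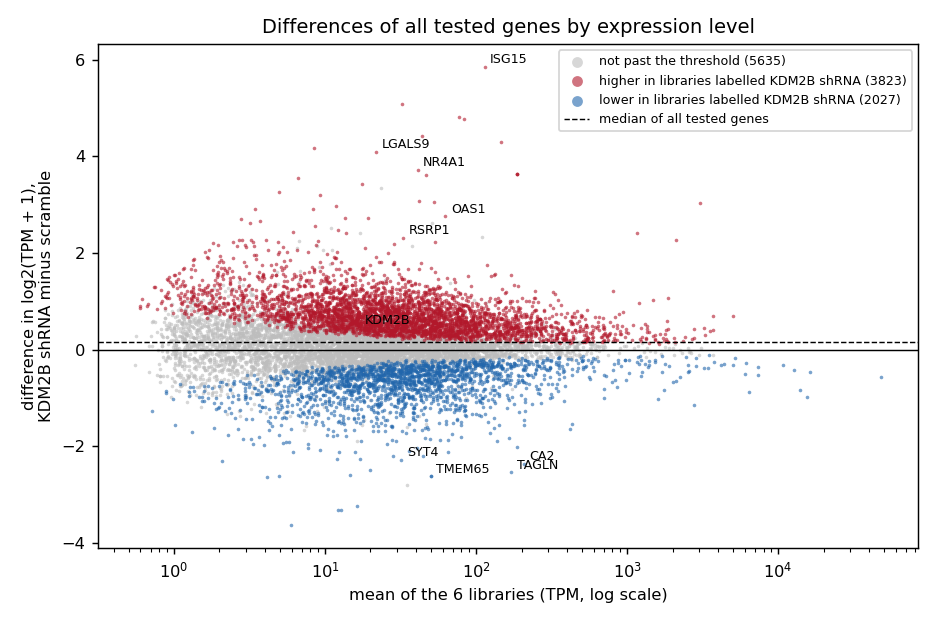
Each point is 1 of the 11485 tested genes, with its mean TPM over the 6 libraries on a log axis and its difference in log2(TPM + 1), KDM2B shRNA minus scramble. Red points (3823) were higher and blue points (2027) lower in the libraries labelled KDM2B shRNA; the dashed line is the median of all genes at 0.16, and the largest differences are rises.

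The 12 largest rises among genes with a mean of at least 20 TPM joined interferon-induced genes, early response genes, a chaperone and cell surface proteins. ISG15, a ubiquitin-like protein induced by interferon, stood at 201, 336 and 139 TPM in libraries labelled KDM2B shRNA, against 3.2, 1.93 and 3.05 TPM in scramble. OAS1, an antiviral enzyme, stood at 106, 123 and 100.22 TPM in libraries labelled KDM2B shRNA, against 14.5, 17.6 and 14.1 TPM in scramble. LGALS9, a galectin, stood at 36.4, 56.9 and 32.4 TPM in libraries labelled KDM2B shRNA, against 0.78, 0.73 and 3.71 TPM in scramble. All 3 were highest in library 2 labelled KDM2B shRNA, and none overlapped scramble. Their differences were 5.85 ± 0.30, 2.76 ± 0.12 and 4.09 ± 0.40 on the log2 scale (limma adjusted p = 2.37e-05, 9.67e-06 and 0.00019).

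NR4A1, an orphan nuclear receptor that responds early to stimuli, stood at 72.8, 85.6 and 72.2 TPM in libraries labelled KDM2B shRNA, against 6.04, 5.94 and 3.21 TPM in scramble. MAFF, a small transcription factor of the same early kind, stood at 63.7, 31.0 and 33.5 TPM in libraries labelled KDM2B shRNA, against 10.2, 7.57 and 10.6 TPM in scramble. ZFP36, which binds AU-rich messages and speeds their decay, stood at 37.7, 36.4 and 32.8 TPM in libraries labelled KDM2B shRNA, against 11.9, 10.4 and 6.86 TPM in scramble. All 3 rose, by 3.72 ± 0.21, 2.0 ± 0.27 and 1.80 ± 0.18 (limma adjusted p = 2.78e-05, 0.000718 and 0.000221), and MAFF was highest in library 1 labelled KDM2B shRNA. The untreated library held 3.65 TPM of NR4A1, 25.2 of MAFF and 16.2 of ZFP36, so for MAFF and ZFP36 it stood above all scramble libraries.

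HSPA8, the constitutive member of the heat shock protein 70 chaperones, stood at 3551, 3575 and 3417 TPM in libraries labelled KDM2B shRNA, against 747, 747 and 698 TPM in scramble. Its libraries were tight in both groups and the difference was 2.26 ± 0.04 (limma adjusted p = 1.06e-07), with 1188 TPM in the untreated library. PROCR, the endothelial receptor of protein C, stood at 47.5, 45.0 and 47.8 TPM in libraries labelled KDM2B shRNA, against 17.7, 7.06 and 6.78 TPM in scramble. GPNMB, a transmembrane glycoprotein of melanosomes and macrophages, stood at 50.03, 40.1 and 45.4 TPM in libraries labelled KDM2B shRNA, against 14.1, 11.53 and 11.1 TPM in scramble. Both surface protein genes rose, by 2.18 ± 0.31 and 1.80 ± 0.13, and scramble library 1 was the nearest to the raised values in each. SLC35A5, of the nucleotide sugar transporter family, rose by 1.91 ± 0.15, and RSRP1, a serine- and arginine-rich protein gene, by 2.31 ± 0.19. How reads shared with near-identical copies were assigned is not given in the sources used here, so values of genes with many copies, such as HSPA8, UBB and the ribosomal protein genes, are uncertain.

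The 12 largest falls by the same rule were of more mixed kinds. TMEM65, a protein of the inner mitochondrial membrane, stood at 11.1, 11.9 and 17.7 TPM in libraries labelled KDM2B shRNA, against 79.3, 89.9 and 91.3 TPM in scramble. SSBP2, a cofactor of LIM-domain transcription complexes, stood at 12.3, 16.98 and 11.2 TPM in libraries labelled KDM2B shRNA, against 100.01, 82.4 and 79.3 TPM in scramble. GANAB, the catalytic subunit of the glucosidase that trims N-glycans in the endoplasmic reticulum, stood at 14.3, 15.5 and 16.2 TPM in libraries labelled KDM2B shRNA, against 73.6, 73.4 and 74.8 TPM in scramble. The groups were far apart for all 3, which fell by 2.62 ± 0.17, 2.62 ± 0.16 and 2.20 ± 0.08 (limma adjusted p = 4.06e-05, 3.45e-05 and 7.38e-06). SMU1, a spliceosome component, stood at 14.8, 11.7 and 12.5 TPM in libraries labelled KDM2B shRNA, against 63.6, 54.3 and 58.7 TPM in scramble. PYCR1, the mitochondrial enzyme that makes proline, stood at 58.6, 66.4 and 48.9 TPM in libraries labelled KDM2B shRNA, against 217, 218 and 209.9 TPM in scramble. COL4A1, a basement membrane collagen, stood at 12.5, 9.29 and 12.5 TPM in libraries labelled KDM2B shRNA, against 44.5, 43.3 and 45.2 TPM in scramble. These fell by 2.10 ± 0.11, 1.88 ± 0.11 and 1.88 ± 0.13 (limma adjusted p = 2.56e-05, 2.98e-05 and 5.09e-05), and the untreated library lay within the scramble range for SMU1 and PYCR1.

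TAGLN, a smooth muscle protein that binds actin, fell by 2.54 ± 0.15 and CA2, a carbonic anhydrase, by 2.37 ± 0.06 (limma adjusted p = 3.27e-05 and 9.97e-07). For both the untreated library lay between the groups, at 75.04 and 149 TPM. SYT4, a synaptotagmin, stood at 9.43, 11.3 and 10.1 TPM in libraries labelled KDM2B shRNA, against 55.4, 56.5 and 49.1 TPM in scramble. The inositol phosphate phosphatase gene INPP5A fell by 2.20 ± 0.13, the lysyl oxidase homolog LOXL4 by 1.95 ± 0.19 and the secreted semaphorin SEMA3B by 1.90 ± 0.16. None of the 24 genes overlapped between the groups, which the rule required, and all 24 kept their direction with trimmed-mean scaling.

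**Figure D2:**
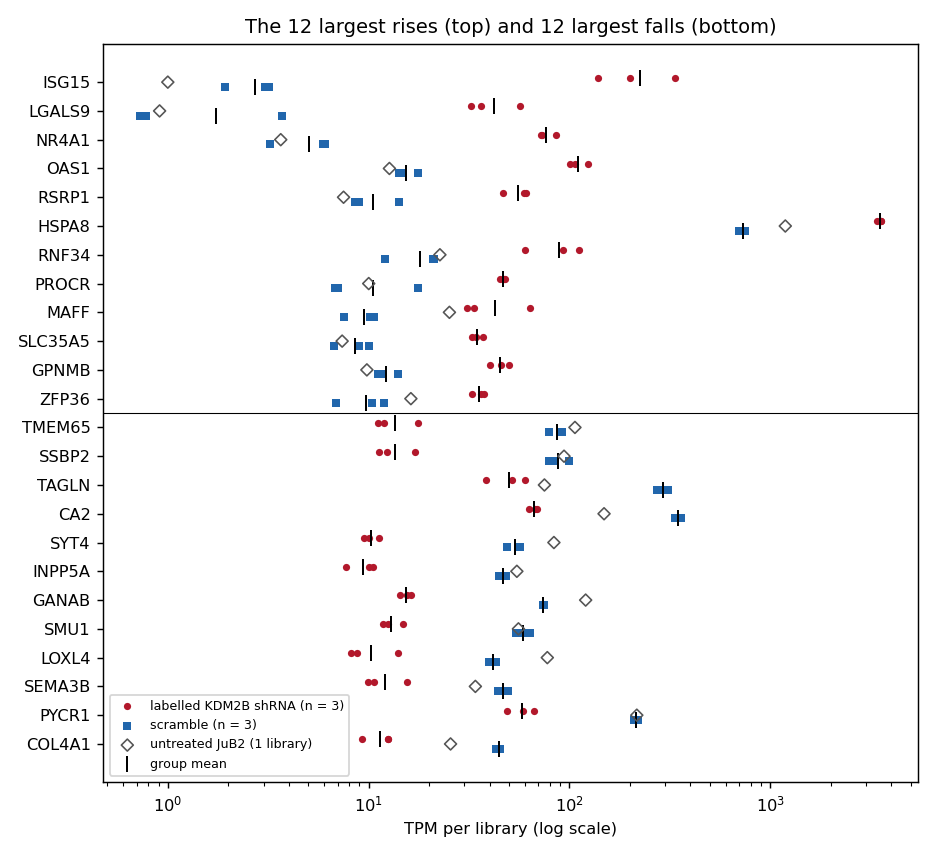
TPM per library on a log axis for the 12 largest rises (top) and falls (bottom): red circles are the 3 libraries labelled KDM2B shRNA, blue squares the 3 scramble libraries, open diamonds the 1 untreated JuB2 library and bars the group means. The untreated library stood nearer to scramble for most of them. It lay between the groups for HSPA8, RNF34, MAFF, ZFP36, TAGLN, CA2, SEMA3B and COL4A1, nearer to the libraries labelled KDM2B shRNA for MAFF and TAGLN and about midway for CA2.

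In mean TPM, the 10 largest gains were of abundant nuclear-encoded messages. HSPA8 averaged 3515 ± 85.2 TPM in libraries labelled KDM2B shRNA, against 731 ± 28.7 TPM in scramble (SD, n = 3 each). UBB, a polyubiquitin gene, averaged 6225 ± 124 TPM in libraries labelled KDM2B shRNA, against 3831 ± 254 TPM in scramble. HSP90AA1, the inducible heat shock protein 90, averaged 1582 ± 41.5 TPM in libraries labelled KDM2B shRNA, against 806 ± 12.1 TPM in scramble. EIF5A, a factor of translation elongation, RNASEK, a ribonuclease, and NDUFA12, a subunit of respiratory complex I, rose by 0.58 ± 0.03, 1.21 ± 0.05 and 1.02 ± 0.21 on the log2 scale. The remaining 4 were the ribosomal protein genes RPLP2, RPL27A, RPS26 and RPS27, with rises between 0.30 and 0.45. These do not stand for their families. Of 33 tested genes with RPL symbols 10 rose and 15 fell (4 higher and 18 lower under trimmed-mean scaling), among them RPL9 by 0.66 ± 0.03. Of 32 with RPS symbols, not all of ribosomal proteins, 9 rose and 5 fell (2 higher and 14 lower under trimmed-mean scaling). RPS27 did not pass with trimmed-mean scaling (0.13, limma adjusted p = 0.101). All of the 10 largest losses were mitochondrially encoded. ATP8 lost the most, at 38917 ± 3859 TPM in libraries labelled KDM2B shRNA, against 57205 ± 4829 TPM in scramble, and COX1 stood at 10375 ± 253 TPM in libraries labelled KDM2B shRNA, against 20483 ± 492 TPM in scramble. With quantile normalization, which fixes the values of the highest ranks, ATP6 and ND4L were instead 0.22 higher and ATP8 and COX3 differed by 0.00.

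Genes were grouped into 51 lists of processes, with 2119 tested members in all. More members rose than fell in 38 lists, more fell in 12, and 1 was equal. With trimmed-mean scaling 20 lists had more higher members and 29 more lower ones. The 20 lists with more rises and the 12 with more falls under every scaling tried are the base of the description below. Each alternative scaling lowers the median difference, so keeping more falls under all of them was an easier condition than keeping more rises. Each share is to be read against 33.3% higher and 17.6% lower among all tested genes, or 23.8% and 24.6% with trimmed-mean scaling, and each median against 0.16.

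**Figure D3:**
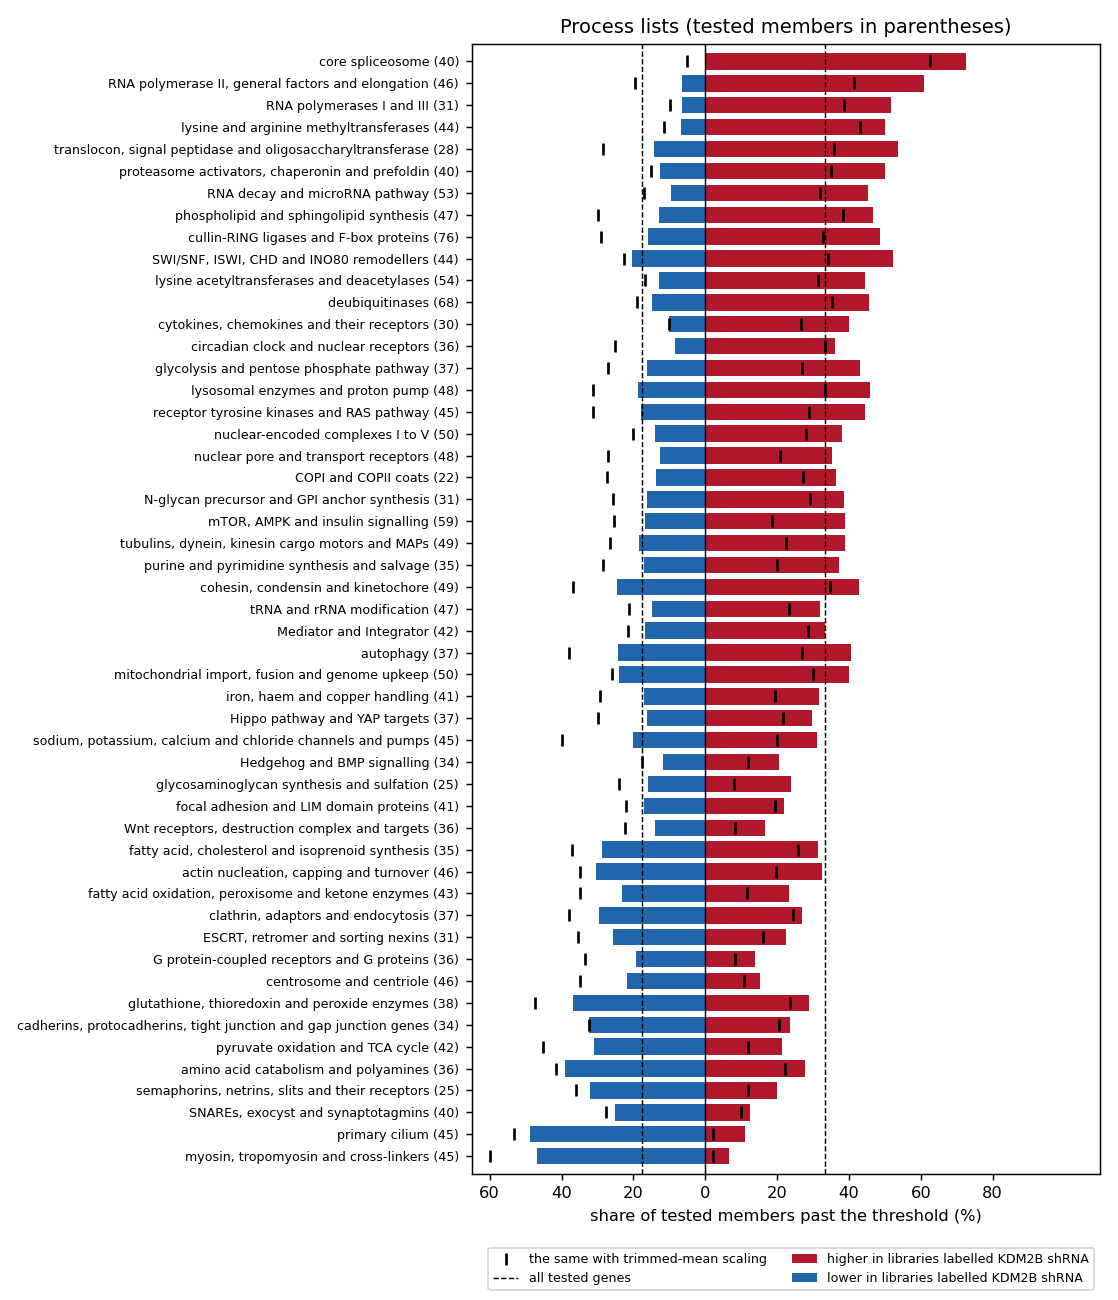
Share of the tested members of each of 51 lists that were higher (red, right) or lower (blue, left) in the libraries labelled KDM2B shRNA, in percent; black ticks are the same shares with trimmed-mean scaling and dashed lines those of all tested genes (33.3% and 17.6%). The core spliceosome stands at the top with 72.5% higher, and the primary cilium and the myosin list at the bottom with 48.9% and 46.7% lower.

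Transcription and splicing genes rose most often. The core spliceosome removes introns, and of its genes 29 of 40 tested members rose and 0 fell (72.5% and 0.0%), with a median of 0.50 and 25 higher and 2 lower under trimmed-mean scaling. DHX38, a helicase of the second splicing step, stood at 30.3, 30.9 and 30.5 TPM in libraries labelled KDM2B shRNA, against 14.7, 12.6 and 11.1 TPM in scramble. PRPF3, of the tri-snRNP, stood at 135, 115 and 121 TPM in libraries labelled KDM2B shRNA, against 59.4, 57.6 and 55.0 TPM in scramble. PRPF8, the scaffold at the catalytic centre, stood at 149, 131 and 137 TPM in libraries labelled KDM2B shRNA, against 79.4, 73.0 and 72.5 TPM in scramble. The groups did not overlap in these 3 genes, which rose by 1.20 ± 0.12, 1.1 ± 0.08 and 0.88 ± 0.07. Of the proteins that recognise the branch site SF3B4 rose by 0.98 ± 0.06, SF1 by 0.86 ± 0.09, SF3A2 by 0.80 ± 0.10 and SF3B1 by 0.50 ± 0.07. SMU1, described above, is a spliceosome protein outside this list and fell.

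RNA polymerase II makes messenger RNA with general factors that find the start and elongation factors that release pausing. In that list 28 of 46 tested members rose and 3 fell (60.9% and 6.52%), with a median of 0.38 and 19 higher and 9 lower under trimmed-mean scaling. POLR2A, the catalytic subunit, stood at 103, 90.6 and 89.7 TPM in libraries labelled KDM2B shRNA, against 32.6, 35.1 and 32.0 TPM in scramble. The elongation factors SUPT5H and SUPT6H rose by 1.18 ± 0.09 and 1.03 ± 0.09, LEO1 of the PAF complex by 1.25 ± 0.10, and CCNT1, the cyclin of the pause-release kinase, by 1.07 ± 0.14. LARP7, which holds that kinase inactive on a small nuclear RNA, went the other way and stood at 74.98, 79.7 and 69.9 TPM in libraries labelled KDM2B shRNA, against 172, 173 and 172 TPM in scramble. It fell by 1.19 ± 0.07 (limma adjusted p = 2.79e-05) without overlap. Of the polymerase I and III genes, which serve ribosomal and transfer RNA, 16 of 31 tested members rose and 2 fell (12 higher and 3 lower under trimmed-mean scaling). POLR1A, the large subunit of polymerase I, rose by 0.88 ± 0.09. The polymerase III subunit genes CRCP and POLR3G went opposite ways, CRCP rising by 0.95 ± 0.15 and POLR3G falling by 1.08 ± 0.13. The other lower member, TAF1B, was not called without any 1 of the libraries labelled KDM2B shRNA or without scramble library 1 or 2, and the list then had 1 lower member except without library 1 labelled KDM2B shRNA.

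Later steps of RNA metabolism moved less uniformly. Genes of RNA decay and the microRNA pathway had 24 of 53 tested members higher and 5 lower, and 17 higher and 9 lower under trimmed-mean scaling. DCP1A, a decapping activator, stood at 21.2, 21.8 and 18.8 TPM in libraries labelled KDM2B shRNA, against 6.72, 6.42 and 7.32 TPM in scramble. UPF1 and SMG8, of nonsense-mediated decay, rose by 0.95 ± 0.10 and 1.20 ± 0.11, and CNOT6, a deadenylase, by 1.08 ± 0.15. The exosome gene EXOSC8 fell by 1.18 ± 0.15 although EXOSC3 rose by 0.91 ± 0.13. The lower members numbered 3 without library 2 labelled KDM2B shRNA, without scramble library 2 and without scramble library 3. Mediator and Integrator genes, with 14 of 42 higher and 7 lower, and tRNA and rRNA modification genes, with 15 of 47 higher and 7 lower, stayed near the shares of all genes. MED28 rose by 1.26 ± 0.06, and INTS8 and MED17 fell by 1.06 ± 0.07 and 0.96 ± 0.09. For nuclear pore and transport genes the order turned with scaling, at 17 higher and 6 lower of 48 but 10 higher and 13 lower under trimmed-mean scaling. Without library 2 labelled KDM2B shRNA 3 of them were lower, and 2 without scramble library 1 or 2. NUP153, of the nuclear basket, rose by 1.30 ± 0.09, and CSE1L, which recycles importin, fell by 1.0 ± 0.09.

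Chromatin enzymes rose beside these. Of the lysine and arginine methyltransferase genes 22 of 44 tested members rose and 3 fell (50% and 6.82%), with a median of 0.40 and 19 higher and 5 lower under trimmed-mean scaling. SETD2, which methylates histones in transcribed gene bodies, stood at 34.5, 31.1 and 30.2 TPM in libraries labelled KDM2B shRNA, against 12.3, 11.96 and 11.1 TPM in scramble. SMYD4 stood at 21.3, 21.6 and 25.5 TPM in libraries labelled KDM2B shRNA, against 6.93, 6.97 and 8.27 TPM in scramble. DOT1L, which methylates the core of a histone, stood at 21.7, 21.0 and 19.4 TPM in libraries labelled KDM2B shRNA, against 8.78, 9.18 and 8.88 TPM in scramble. None of the 3 overlapped scramble, and the rises were 1.36 ± 0.10, 1.5 ± 0.13 and 1.12 ± 0.11 (limma adjusted p = 7.06e-05, 0.00011 and 0.000163). The catalytic subunits of the COMPASS family, KMT2D, SETD1A, KMT2A, SETD1B and KMT2C, rose by between 0.60 and 1.03. Among the subunits they share, RBBP5 and DPY30 rose by 0.55 ± 0.12 and 0.74 ± 0.08, while WDR5 and ASH2L fell by 0.33 ± 0.08 and 0.35 ± 0.13. ASH2L passed narrowly (limma adjusted p = 0.0477) and was not called without any 1 of the libraries labelled KDM2B shRNA or without scramble library 2 or 3.

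Chromatin remodellers, which move nucleosomes with ATP, had 23 of 44 tested members higher and 9 lower, and 15 higher and 10 lower under trimmed-mean scaling. The ATPase genes CHD4, CHD6, CHD8, EP400 and SRCAP rose by between 0.72 and 1.04, whereas CHD2, also an ATPase, fell by 0.44 ± 0.10. The SWI/SNF core subunits SMARCC1, SMARCC2, SMARCB1 and SMARCE1 fell by 0.54 ± 0.11, 0.69 ± 0.12, 0.44 ± 0.09 and 0.31 ± 0.08. BAZ2A, of a nucleolar remodeller, stood at 53.1, 49.1 and 51.0 TPM in libraries labelled KDM2B shRNA, against 22.5, 21.4 and 20.1 TPM in scramble, which is a rise of 1.22 ± 0.09 without overlap. Lysine acetyltransferase and deacetylase genes had 24 of 54 tested members higher and 7 lower, and 17 higher and 9 lower under trimmed-mean scaling. CREBBP, a broad acetyltransferase and coactivator, rose by 1.07 ± 0.13, SIN3B, a deacetylase scaffold, by 1.01 ± 0.10, and KAT2B, another acetyltransferase, fell by 0.85 ± 0.14. Without library 3 labelled KDM2B shRNA, or without any 1 of the scramble libraries, 4 members were lower. Cohesin, condensin and kinetochore genes turned with scaling, with 21 of 49 higher and 12 lower but 17 higher and 18 lower under trimmed-mean scaling.

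**Figure D4:**
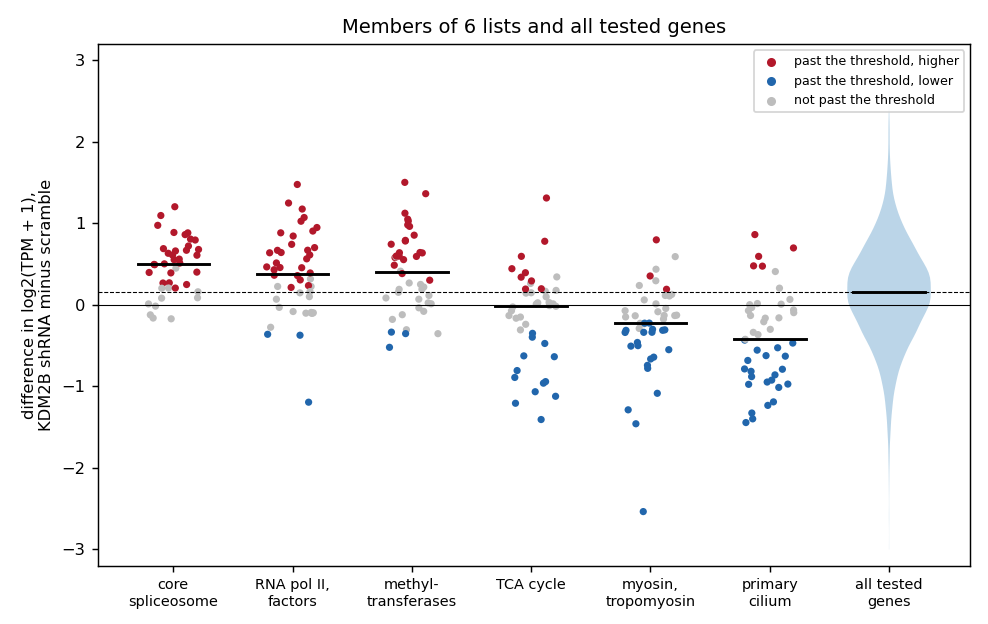
Difference in log2(TPM + 1), KDM2B shRNA minus scramble, of each tested member of 6 lists, with members past the threshold in red (higher) or blue (lower), the median of each list as a bar, and all 11485 tested genes as a violin limited to 3 either way. Spliceosome members reached no call below 0, whereas most called cilium and myosin members lie below it; the dashed line is the median of all genes.

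In the list of proteasome activators, chaperonin, prefoldin and heat shock proteins 20 of 40 tested members rose and 5 fell (14 higher and 6 lower under trimmed-mean scaling). DNAJB1, a co-chaperone of the heat shock protein 70 family, stood at 189.9, 217 and 193 TPM in libraries labelled KDM2B shRNA, against 65.5, 71.7 and 64.5 TPM in scramble. CRYAB, a small heat shock protein, stood at 195, 166 and 189 TPM in libraries labelled KDM2B shRNA, against 58.6, 56.3 and 46.5 TPM in scramble. AHSA1, which activates heat shock protein 90, stood at 332, 373 and 331 TPM in libraries labelled KDM2B shRNA, against 142, 158 and 143 TPM in scramble. All 3 rose, by 1.56 ± 0.08, 1.76 ± 0.10 and 1.22 ± 0.07, beside BAG3 at 1.06 ± 0.17, DNAJA1 at 1.03 ± 0.05 and STIP1 at 0.67 ± 0.09. HSPH1, also a heat shock protein, fell by 0.39 ± 0.08, as did the proteasome activator subunit PSME1 by 1.03 ± 0.10. The DNAJC family of co-chaperones had 5 of 21 tested members higher and 7 lower (5 higher and 8 lower under trimmed-mean scaling), with 7 of each without scramble library 3. DNAJB1, AHSA1, BAG3, DNAJA1, STIP1 and HSPH1 were chosen after their values were seen.

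As deposited, genes of ubiquitin enzymes rose more often than all tested genes, at 48.7% and 45.6% of the 2 lists below against 33.3%. Their shares of falls, 15.8% and 14.7%, were near the 17.6% of all tested genes. Cullin-RING ligase and F-box genes had 37 of 76 tested members higher and 12 lower, and 25 higher and 22 lower under trimmed-mean scaling. The substrate adaptors KLHL25, KCTD5 and KLHL21 rose by 1.42 ± 0.15, 1.15 ± 0.19 and 0.99 ± 0.14. NAE1 and UBA3 form the enzyme that activates NEDD8, the modifier that switches cullins on, and both fell. NAE1 stood at 19.6, 19.6 and 14.4 TPM in libraries labelled KDM2B shRNA, against 46.4, 45.8 and 50.7 TPM in scramble. UBA3 stood at 53.7, 45.4 and 46.1 TPM in libraries labelled KDM2B shRNA, against 112, 128 and 113 TPM in scramble. These 2 falls, of 1.38 ± 0.13 and 1.26 ± 0.09, stood against a rise of NEDD8 itself by 0.48 ± 0.05. Deubiquitinase genes had 31 of 68 tested members higher and 10 lower, and 24 higher and 13 lower under trimmed-mean scaling, with USP53 and YOD1 rising by 1.28 ± 0.12 and 1.18 ± 0.24. Their lower members numbered 4 without scramble library 1 and 6 without any 1 of libraries 1 and 3 labelled KDM2B shRNA or scramble libraries 2 and 3.

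In the secretory pathway, genes that bring proteins into the endoplasmic reticulum had 15 of 28 tested members higher and 4 lower, and 10 higher and 8 lower under trimmed-mean scaling. SEC61A1, the channel, stood at 461, 461 and 446 TPM in libraries labelled KDM2B shRNA, against 270.2, 274 and 272 TPM in scramble. STT3A, the catalytic subunit of N-glycosylation, rose by 0.70 ± 0.07. SRP68 rose by 0.84 ± 0.06, whereas SRP72, its partner in the signal recognition particle, fell by 0.32 ± 0.07. Coat genes of transport vesicles turned with scaling, at 8 of 22 higher and 3 lower but 6 higher and 6 lower under trimmed-mean scaling. COPG2 stood at 5.24, 4.66 and 4.89 TPM in libraries labelled KDM2B shRNA, against 19.2, 19.4 and 18.7 TPM in scramble, a fall of 1.76 ± 0.12 without overlap. Lysosomal enzyme and proton pump genes had 22 of 48 tested members higher and 9 lower, and 16 higher and 15 lower under trimmed-mean scaling. Of the listed proton pump genes none fell as deposited, whereas ATP6V1C1 and ATP6V1H did with trimmed-mean scaling (-0.33 and -0.25), and ATP6V0A2, a pump subunit outside the list, fell by 1.04 ± 0.10. The pump genes ATP6V0B, ATP6V1A, ATP6V1E1 and ATP6V0D1 rose by 1.20 ± 0.05, 1.02 ± 0.10, 0.92 ± 0.05 and 0.84 ± 0.06. The 9 lower members were all hydrolases, among them CTSF, which fell by 0.87 ± 0.19, and LIPA by 0.74 ± 0.14, although other hydrolases rose, among them SMPD1 by 1.02 ± 0.13.

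Genes of vesicle fusion were set apart by few rises more than by many falls. SNAREs, the exocyst and synaptotagmins had 5 of 40 tested members higher and 10 lower, and 4 higher and 11 lower under trimmed-mean scaling. The share of falls was above that of all tested genes as deposited (17.6%) but near it with trimmed-mean scaling (24.6%). The share of rises was below that of all tested genes under both (33.3% and 23.8%). SNAP23, a plasma membrane SNARE, stood at 48.7, 47.2 and 45.1 TPM in libraries labelled KDM2B shRNA, against 95.2, 142 and 88.6 TPM in scramble. STX4, its partner at the plasma membrane, fell by 0.95 ± 0.14, and the exocyst genes EXOC1, EXOC2, EXOC4 and EXOC6 fell by between 0.52 and 0.91. STX10, of the Golgi network, rose by 0.85 ± 0.09. PICALM and AP3B1, adaptors of coated vesicles, fell by 1.38 ± 0.08 and 1.15 ± 0.09, and AP1M1, an adaptor subunit of the Golgi network, rose by 0.95 ± 0.08.

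Carbon metabolism split between pathways. Pyruvate oxidation and the TCA cycle had 9 of 42 tested members higher and 13 lower, and 5 higher and 19 lower under trimmed-mean scaling. IDH3G, a subunit of the NAD-linked isocitrate dehydrogenase, stood at 25.7, 22.3 and 21.1 TPM in libraries labelled KDM2B shRNA, against 62.1, 48.3 and 53.4 TPM in scramble. CS, citrate synthase, stood at 278, 274 and 285 TPM in libraries labelled KDM2B shRNA, against 193, 186 and 175 TPM in scramble. IDH3G fell by 1.21 ± 0.12 and CS rose by 0.59 ± 0.06, each without overlap. IDH3A, the catalytic partner of IDH3G, rose by 0.39 ± 0.07. All 3 malic enzymes fell, ME1 by 0.47 ± 0.09, ME2 by 1.07 ± 0.13 and ME3 by 1.41 ± 0.18. Of the kinases that switch off pyruvate dehydrogenase, PDK4 rose by 1.31 ± 0.22 and PDK1 and PDK3 fell by 0.96 ± 0.11 and 0.89 ± 0.12. Glycolysis and pentose phosphate genes were levelled by scaling, at 16 higher and 6 lower of 37 but 10 higher and 10 lower under trimmed-mean scaling, with PYGL, a glycogen phosphorylase, and PGM1 falling by 1.27 ± 0.13 and 0.93 ± 0.08.

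Nuclear-encoded subunits of respiratory complexes stayed near the shares of all genes, as 19 of 50 tested members rose and 7 fell, with 14 higher and 10 lower under trimmed-mean scaling. Within complex I the core subunit NDUFS7 fell by 0.66 ± 0.12, while NDUFS8, NDUFS3 and NDUFV2 rose by 0.67 ± 0.08, 0.56 ± 0.10 and 0.46 ± 0.08. Of the genes of mitochondrial import, fusion and genome upkeep 20 of 50 were higher and 12 lower, and 15 higher and 13 lower under trimmed-mean scaling. The import genes TIMM10 and TIMM22 rose by 1.19 ± 0.13 and 0.93 ± 0.10, as did TWNK, the mitochondrial helicase, and POLG, the mitochondrial polymerase, by 1.07 ± 0.20 and 0.76 ± 0.08. LRPPRC, which stabilises mitochondrial messages, fell by 0.66 ± 0.05. The 2 outer membrane mitofusins differed in direction, with MFN1 falling by 1.28 ± 0.14 and MFN2 rising by 0.57 ± 0.11.

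Breakdown of amino acids had more falls than rises, with 10 of 36 tested members higher and 14 lower, and 8 higher and 15 lower under trimmed-mean scaling. IVD, isovaleryl-CoA dehydrogenase, stood at 60.4, 35.4 and 47.0 TPM in libraries labelled KDM2B shRNA, against 129, 125 and 108 TPM in scramble. MCCC1, of the next step in leucine breakdown, stood at 8.49, 7.2 and 9.47 TPM in libraries labelled KDM2B shRNA, against 24.3, 27.3 and 25.6 TPM in scramble. Both fell, by 1.35 ± 0.18 and 1.52 ± 0.13, beside MCCC2 by 0.39 ± 0.06, PCCA by 1.05 ± 0.11 and PCCB by 0.83 ± 0.16. IVD, MCCC2, PCCA and PCCB were chosen after their values were seen, as were AHCY and MAT2A below. AHCY, which clears the by-product of methylation, stood at 33.8, 50.7 and 40.05 TPM in libraries labelled KDM2B shRNA, against 116, 124 and 115 TPM in scramble, a fall of 1.51 ± 0.14, while MAT2A, which makes the methyl donor, rose by 0.89 ± 0.09. Glutathione, thioredoxin and peroxide genes had 11 of 38 higher and 14 lower, and 9 higher and 18 lower under trimmed-mean scaling, although the counts were equal at 11 each without library 2 labelled KDM2B shRNA. SLC7A11, the cystine carrier, fell by 1.5 ± 0.16, TXNRD1 by 1.09 ± 0.06 and NQO1 by 0.91 ± 0.07, and TXNIP, an inhibitor of thioredoxin, rose by 1.19 ± 0.13.

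Lipid genes rose in the phospholipid and sphingolipid list, where 22 of 47 tested members rose and 6 fell (18 higher and 14 lower under trimmed-mean scaling). PLIN2, the coat of lipid droplets, stood at 213, 294 and 257 TPM in libraries labelled KDM2B shRNA, against 97.0, 96.3 and 68.0 TPM in scramble. DEGS1, of ceramide synthesis, and MBOAT7, of phosphatidylinositol remodelling, rose by 1.08 ± 0.10 and 1.15 ± 0.09. Fatty acid oxidation and peroxisome genes were level at 10 higher and 10 lower of 43, but 5 higher and 15 lower under trimmed-mean scaling. ACAD8 and PEX7 fell there by 1.32 ± 0.09 and 1.72 ± 0.41, and EHHADH rose by 0.96 ± 0.13. PEX7 varied within both groups, at 13.9, 8.80 and 23.2 TPM in libraries labelled KDM2B shRNA, against 70.8, 27.3 and 61.2 TPM in scramble.

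Contractile genes fell often. Of the myosin, tropomyosin and cross-linker genes 3 of 45 tested members rose and 21 fell (6.67% and 46.7%), with a median of -0.22 and 1 higher and 27 lower under trimmed-mean scaling. TPM1, tropomyosin, stood at 112, 115 and 105 TPM in libraries labelled KDM2B shRNA, against 307, 309 and 300.2 TPM in scramble. MYL9, a myosin light chain of contractile cells, stood at 116, 119 and 118 TPM in libraries labelled KDM2B shRNA, against 177, 167 and 157 TPM in scramble. MYO5A, a myosin that carries cargo, stood at 21.1, 20.3 and 21.5 TPM in libraries labelled KDM2B shRNA, against 35.6, 35.9 and 38.7 TPM in scramble. All 3 fell, by 1.46 ± 0.06, 0.50 ± 0.06 and 0.78 ± 0.09, and ROCK2, a kinase that keeps that light chain active, by 0.74 ± 0.10. The filamin gene FLNA and the myosin gene MYH10 fell by 0.31 ± 0.05 and 0.64 ± 0.11. The spectrin genes SPTAN1 and SPTBN1 rose by 0.80 ± 0.07 and 0.35 ± 0.07, though SPTBN1 did not pass with trimmed-mean scaling (0.19, limma adjusted p = 0.0553). Summed smooth muscle markers moved with this list through TAGLN and ACTA2, as given above. For MYL9 the untreated library, at 109.9 TPM, lay below all libraries of both groups. Actin nucleation and turnover genes turned with scaling, at 15 of 46 higher and 14 lower but 9 higher and 16 lower under trimmed-mean scaling, and the actin assembly genes ENAH and DAAM1 fell by 1.52 ± 0.07 and 1.41 ± 0.14.

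Primary cilium genes had the highest share of falls of the 51 lists as deposited, and the myosin list had it with trimmed-mean scaling. The cilium is a signalling antenna built by intraflagellar transport, whose entry is guarded by a transition zone. Of its genes 5 of 45 tested members rose and 22 fell (11.1% and 48.9%), with a median of -0.42 and 1 higher and 24 lower under trimmed-mean scaling. IFT88, a core transport protein, stood at 4.66, 3.65 and 3.93 TPM in libraries labelled KDM2B shRNA, against 11.3, 12.1 and 13.8 TPM in scramble. IFT74 stood at 18.9, 20.8 and 19.6 TPM in libraries labelled KDM2B shRNA, against 49.6, 44.2 and 45.5 TPM in scramble. DYNC2LI1, of the motor that returns cargo to the cell body, stood at 24.7, 28.2 and 22.4 TPM in libraries labelled KDM2B shRNA, against 59.0, 71.0 and 63.3 TPM in scramble. Each library labelled KDM2B shRNA was below each scramble library in these 3, and the falls were 1.4 ± 0.15, 1.19 ± 0.09 and 1.33 ± 0.11 (limma adjusted p = 0.000276, 7.06e-05 and 0.000106). IFT22, IFT52, IFT57, IFT80 and IFT81 fell too, by between 0.43 and 0.97. Of the transition zone genes TCTN1 and TCTN2 fell by 0.95 ± 0.17 and 1.23 ± 0.16, and of the BBSome genes, which carry membrane cargo, BBS2, BBS7 and BBS9 fell by 1.01 ± 0.11, 0.82 ± 0.11 and 0.88 ± 0.19. INPP5E and INVS rose by 0.86 ± 0.27 and 0.70 ± 0.14, but INPP5E did not pass with trimmed-mean scaling (limma adjusted p = 0.0701). The higher members numbered 1 without library 1 labelled KDM2B shRNA, 3 without its library 2 and 2 without its library 3, and 3 without scramble library 1 or 2. Centrosome and centriole genes had 7 of 46 higher and 10 lower, and 5 higher and 16 lower under trimmed-mean scaling, with 7 of each without scramble library 1 or 3, and CEP83, which anchors the centriole for a cilium, fell by 1.4 ± 0.08.

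Signalling lists were closer to the shares of all genes. Cytokine, chemokine and receptor genes had 12 of 30 tested members higher and 3 lower, and 8 higher and 3 lower under trimmed-mean scaling, with 7 higher without scramble library 3. IL4R, an interleukin receptor, stood at 10.3, 9.42 and 7.22 TPM in libraries labelled KDM2B shRNA, against 1.94, 2.20 and 1.87 TPM in scramble. IFNGR1 and IFNGR2, the subunits of the interferon gamma receptor, rose by 0.66 ± 0.12 and 0.64 ± 0.15, and LIFR fell by 0.76 ± 0.13. Semaphorin, netrin and slit genes and their receptors had 5 of 25 higher and 8 lower, and 3 higher and 9 lower under trimmed-mean scaling. The higher ones numbered 2 without any 1 of the libraries labelled KDM2B shRNA or scramble libraries 2 and 3, and 3 without scramble library 1. The membrane-bound SEMA4B and SEMA4C rose by 1.21 ± 0.14 and 1.82 ± 0.13, and the secreted SEMA3A and SEMA3B fell by 0.72 ± 0.13 and 1.90 ± 0.16, as did the netrin receptor UNC5B by 2.11 ± 0.15. The plexin genes PLXNA1, PLXNA2 and PLXND1, which encode semaphorin receptors, fell by between 0.49 and 1.20.

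Circadian clock and nuclear receptor genes had 13 of 36 tested members higher and 3 lower, and 12 higher and 9 lower under trimmed-mean scaling. PER1, a clock repressor, stood at 46.1, 49.7 and 44.8 TPM in libraries labelled KDM2B shRNA, against 16.02, 14.4 and 14.8 TPM in scramble. NR1D1, which links the loops of the clock, rose by 0.91 ± 0.13. PPARG, a nuclear receptor of lipid metabolism, stood at 105, 111 and 107 TPM in libraries labelled KDM2B shRNA, against 216, 217 and 214 TPM in scramble. It fell by 1.0 ± 0.05, while PPARD rose by 0.91 ± 0.07. Receptor tyrosine kinase and RAS genes turned with scaling, at 20 of 45 higher and 8 lower but 13 higher and 14 lower under trimmed-mean scaling. FGFR2 stood at 3.23, 2.95 and 2.62 TPM in libraries labelled KDM2B shRNA, against 16.2, 16.2 and 14.7 TPM in scramble, a fall of 2.09 ± 0.14, and EPHA2 rose by 1.07 ± 0.06. In the mTOR, AMPK and insulin list 23 of 59 were higher and 10 lower, but 11 higher and 15 lower under trimmed-mean scaling, and 15 were higher without library 1 labelled KDM2B shRNA. DDIT4 and DEPTOR, which restrain mTOR, fell by 1.84 ± 0.13 and 1.13 ± 0.11. ID3, a target of BMP signalling, stood at 180.4, 188 and 222 TPM in libraries labelled KDM2B shRNA, against 70.7, 64.2 and 65.2 TPM in scramble, a rise of 1.54 ± 0.09.

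Of the other lists, most turned with scaling or stayed near all genes. Tubulin, motor and microtubule protein genes had 19 of 49 higher and 9 lower but 11 higher and 13 lower under trimmed-mean scaling. STMN3, which destabilises microtubules, rose by 1.69 ± 0.19, and the kinesin gene KIF5B fell by 1.04 ± 0.06. Ion channel and pump genes had 14 of 45 higher and 9 lower but 9 higher and 18 lower under trimmed-mean scaling, and cadherin and junction genes 8 of 34 higher and 11 lower (7 higher and 11 lower under trimmed-mean scaling), with 8 of each without scramble library 3. F11R, a tight junction protein, rose by 1.33 ± 0.12, and MCAM, an adhesion molecule, fell by 1.42 ± 0.15. Autophagy genes had 15 of 37 higher and 9 lower but 10 higher and 14 lower under trimmed-mean scaling, with GABARAPL2 rising by 1.17 ± 0.16 and the selective autophagy receptor gene OPTN falling by 1.16 ± 0.07. Genes of iron, haem and copper had 13 of 41 higher and 7 lower but 8 higher and 12 lower under trimmed-mean scaling. ALAS1, the first enzyme of haem synthesis, rose by 1.25 ± 0.10. Hippo pathway genes had 11 of 37 higher and 6 lower but 8 higher and 11 lower under trimmed-mean scaling, with the kinase gene LATS1 rising by 0.92 ± 0.09 and its cofactor MOB1A falling by 1.08 ± 0.07. N-glycan precursor and GPI anchor genes stayed with more rises, at 12 of 31 higher and 5 lower (9 higher and 8 lower under trimmed-mean scaling), and ALG3 rose there by 1.17 ± 0.08 while PIGW fell by 1.17 ± 0.23.

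Grouping by the letters of the symbol gave 69 families with at least 15 tested members, with more rises than falls in 52 of them as deposited. That count follows the shares of all tested genes, 33.3% higher and 17.6% lower as deposited. With trimmed-mean scaling these shares were 23.8% and 24.6%, and fewer families had more rises. The largest family with one leading direction was that of the ZNF genes, most of which encode zinc finger DNA-binding proteins. Of 194 tested ZNF genes 92 rose and 17 fell (47.4% and 8.76%), with a median of 0.46 and 73 higher and 20 lower under trimmed-mean scaling. The lower ones numbered 11 without library 2 labelled KDM2B shRNA or scramble library 2, and 10 without scramble library 1 or 3. ZNF341 rose by 1.65 ± 0.17 and ZNF713 fell by 1.54 ± 0.14. ZBTB genes, also of zinc finger proteins, had 12 of 27 higher and 2 lower (10 higher and 3 lower under trimmed-mean scaling), and the RNA-binding RBM genes had 15 of 28 higher and 4 lower (14 higher and 4 lower). The helicase genes named DDX had 18 of 28 higher and 4 lower (12 higher and 6 lower), with DDX51 rising by 1.31 ± 0.20 and DDX11 falling by 0.83 ± 0.13. RNF genes, of RING-finger ubiquitin ligases, had 24 of 49 higher and 3 lower (18 higher and 8 lower), and EIF genes, of translation initiation, 26 of 46 and 8 (18 higher and 11 lower). Leaving out 1 library took the lower members of ZBTB to 1 (library 3 labelled KDM2B shRNA, scramble library 1 or 3), of DDX to 2 (library 3 labelled KDM2B shRNA, scramble library 1 or 2) and of RNF to 1 (library 1 labelled KDM2B shRNA, scramble library 3). Families with more falls included the collagens, with 2 of 17 higher and 10 lower and a median of -0.86, and the NUDT hydrolases, with 1 of 18 higher and 5 lower. The higher collagens numbered 0 without scramble library 1 and 1 without any other library. The NUDT genes had 3 lower without library 3 labelled KDM2B shRNA and 2 higher without scramble library 3. Solute carriers sat near all genes, with 61 of 185 higher and 33 lower.

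Differences were also set in gene order. Tested genes were set in the RefSeq order of UU_Cfam_GSD_1.0, another assembly than that of the data, and divided into 951 blocks of 10 neighbours, with 9672 of 9825 symbols matched. Block medians ran from -0.62 to 1.09, with quartiles at -0.02 and 0.33, and at most 9 genes of a block were called in 1 direction. Whether neighbours moved together more than unlinked genes was not tested. The highest block ran from NEURL4 to POLR2A, with 6 genes higher, among them NLGN2 by 1.44 ± 0.17 and ACAP1 by 1.35 ± 0.24, and TMEM256 lower by 1.0 ± 0.13. Next came DNAJC8 to GPR3, with 8 higher, among them SMPDL3B by 1.54 ± 0.26. In that block the interferon-induced IFI6 stood at 5.27, 10.6 and 4.86 TPM in libraries labelled KDM2B shRNA and was listed at 0 in each scramble library and in the untreated library. RBBP5 to RAB7B followed with 8 higher. The lowest block ran from THTPA to REC8, with 6 genes lower, among them PCK2 by 1.12 ± 0.08 and PSME1 by 1.03 ± 0.10, and 1 higher, RNF31 by 0.86 ± 0.07.

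H2AC13, a histone gene, had a listed value of 0 in each scramble library and in the untreated library, while the libraries labelled KDM2B shRNA held 17.6, 15.3 and 18.1 TPM. A gene with no symbol, ENSCAFG00000047415, was listed at 0 in the libraries labelled KDM2B shRNA and at 7.98, 10.8 and 16.98 TPM in scramble. GNG2, a G protein subunit gene, was listed at 0 in 2 of the libraries labelled KDM2B shRNA and stood at 0, 9.41 and 0 TPM in libraries labelled KDM2B shRNA, against 25.5, 23.0 and 15.5 TPM in scramble. Since a value of 0 can be a failed estimate, no fold is given for these 3 genes or for IFI6. H2AC13, ENSCAFG00000047415 and IFI6 also passed the filter on level only through the group where they were high.

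Spread within the libraries labelled KDM2B shRNA was uneven for some risen genes. Among 2837 risen genes with a mean of at least 10 TPM in these libraries and no overlap, 20 were over 1.4 times higher in library 1 than in the next, 20 in library 2 and 5 in library 3. Those of library 2 included ISG15, LGALS9, OAS2 and BST2, all known to be induced by interferon. BST2 stood at 46.0, 97.9 and 46.8 TPM in libraries labelled KDM2B shRNA, against 2.31, 0.7 and 0 TPM in scramble. Those of library 1 included MAFF, SERTAD1 and ARRDC2, with SERTAD1 at 67.7, 45.6 and 47.1 TPM in libraries labelled KDM2B shRNA, against 22.8, 18.4 and 16.2 TPM in scramble. For BRIX1, ANKMY2, BUB1, ORC3 and NT5C1B the libraries labelled KDM2B shRNA varied most relative to scramble. BRIX1, of ribosome assembly, stood at 48.9, 73.3 and 64.2 TPM in libraries labelled KDM2B shRNA, against 44.9, 45.0 and 44.8 TPM in scramble, so the wide ratio came with scramble values that were nearly equal, and it did not pass with trimmed-mean scaling (limma adjusted p = 0.154) or without any 1 scramble library. BUB1, a spindle checkpoint kinase, stood at 63.8, 59.9 and 59.1 TPM in libraries labelled KDM2B shRNA, against 62.1, 62.2 and 62.1 TPM in scramble and did not pass (limma adjusted p = 0.75), although it did with trimmed-mean scaling (-0.19, limma adjusted p = 0.035).

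The untreated JuB2 library was not used in the choice of genes and stood mostly with scramble. Of the 3823 genes higher in the libraries labelled KDM2B shRNA it was nearer to the scramble mean for 3216 (84.1%), and of the 2027 lower genes for 1670 (82.4%). Among changes of at least 1 on the log2 scale these shares were 88.6% and 90.8%. It lay beyond the mean of the libraries labelled KDM2B shRNA for 3.64% of higher and 6.22% of lower genes. DEPTOR was one of these, at 14.3, 12.9 and 13.3 TPM in libraries labelled KDM2B shRNA, against 34.1, 27.4 and 31.1 TPM in scramble and 13.5 TPM in the untreated library. KDM2B itself held 17.6 TPM in the untreated library, between the groups and nearer to the libraries labelled KDM2B shRNA. With 1 untreated library no test was made of its difference from either group.

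**Figure D5:**
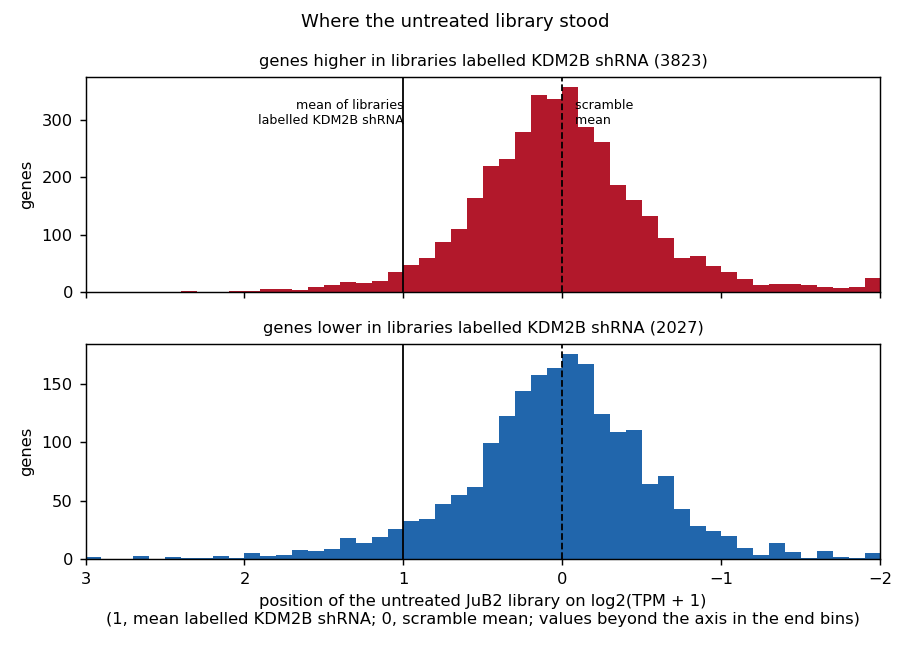
Number of called genes (upper panel, 3823 higher; lower panel, 2027 lower) by the position of the untreated JuB2 library on log2(TPM + 1), where 1 (solid line, left) is the mean of the libraries labelled KDM2B shRNA and 0 (dashed line) the scramble mean. In both panels the genes centre near 0, with medians of 0.033 and 0.02.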

How the data were processed

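RNA sequencing libraries of total RNA from JuB2 cells were compared, 3 labelled KDM2B shRNA and 3 labelled scramble shRNA. The authors deposited 1 table of TPM per gene, and per the submitters' processing notes STAR, RSEM and the build CanFam3.1 were used, in roles and versions not given there. TPM is a share of each library, keeps no depth, and shifts for all other genes when abundant genes such as the 13 mitochondrially encoded ones change. Reads and counts were not used here.

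Genes with at least 1 TPM in 3 of the 6 libraries were tested on log2(TPM + 1) with limma 3.58.1 in R 4.3.3 (intensity trend, Benjamini-Hochberg adjustment over 11485 genes, threshold 0.05). A fold on this scale understates the change of low genes. The fit was also run on simulated data drawn with its own estimated spread and with few genes changed, so that run is no independent check. It recovered 39.4% of falls and 33.3% of rises of 0.5, 79.4% and 87.9% of those of 1, and 100% of those of 2. Differences are KDM2B shRNA minus scramble, with SE, and means carry SD. The alternatives were trimmed-mean scaling (30% of ratios and 5% of levels trimmed), quantile normalization, rescaling without mitochondrially encoded genes, pseudocounts of 0.1 and 5, no filter or a mean of at least 5 TPM, no intensity trend, all 8 libraries in 1 fit, a replicate block and each library left out.

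The genes compared and the process lists were chosen with earlier results of these data known. Genes were named by a rule: KDM2B; the 12 largest rises and falls on the log2 scale (mean of at least 20 TPM, no value of 0, no overlap); the 10 largest gains and losses of TPM; up to 2 members per direction and list and the largest of each symbol family (mean of at least 5 TPM, no overlap); members of the 3 highest and 3 lowest neighbour blocks; genes at 0 throughout 1 group; and 5 genes by spread. Some genes that the rule selects are not reported here. Other list members and the neighbours of KDM2B were chosen after their values were seen. A family joins symbols with the same letters before the first digit. The gene order came from RefSeq (UU_Cfam_GSD_1.0), without its coordinates. Tables and plots were made with Python 3.11.15, pandas 2.3.3 and matplotlib 3.10.9.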

Additional observations from a re-analysis of the deposited data

How the results depend on the processing

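Leaving out 1 library gave 5060 to 5165 called genes, 3207 to 3480 of them higher and 1685 to 1853 lower in the libraries labelled KDM2B shRNA, and a KDM2B difference of 0.41 to 0.51. The other alternatives gave 5365 to 5883 called genes and a KDM2B difference of 0.31 to 0.49, and KDM2B stayed past the threshold under all 16 (limma adjusted p between 0.00788 and 0.0417). The share of called genes that were higher depended on scaling, at 65.4% as deposited, 49.1% with trimmed-mean scaling, 51.5% with quantile normalization and 55.6% without the mitochondrially encoded genes. With the replicate number as a block 3578 genes were higher and 1870 lower. Deviations of same-numbered libraries correlated at 0.034, 0.012 and -0.046, and those of unlike numbers at -0.057 to 0.048. No shared effect of the number was thus seen, though whether same-numbered libraries were made together is not known. Of the 239 genes selected by the parts of the rule on large changes and list members, 16 missed the threshold under at least 1 alternative. Only ATP8 (0.00), COX3 (0.00), ATP6 (0.22) and ND4L (0.22) changed direction or came to 0, all with quantile normalization, which gives the highest ranks fixed values. Of 127 further genes named, 3 missed the threshold under at least 1 alternative and none changed direction. List counts moved by over 1.5 times in 129 of 1632 recounts. Depth is unknown, so how far it limits the small differences cannot be given, and with 3 libraries a group no single value can reach an exact permutation p under 0.10.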
